A study of Mus musculus with 2 samples.

Results

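The 30 genes described here handle cholesterol in the cell: they make it, take it up, move it out of the lysosome, store it, export it and sense it. They were taken by name as a pathway list, by a rule that uses no measured value but was drawn up with earlier results of these data known, and all 30 were found by gene symbol among the 55536 annotated genes. Their RNA was measured in the nucleoplasmic fraction of bone marrow-derived macrophages of C57BL/6J mice, which the labels elsewhere call a nuclear fraction. Both libraries belong to 1 group. The cells had a first exposure to lipid A, the part of bacterial lipopolysaccharide that Toll-like receptor 4 recognises, at 100 ng/ml for 12 hours. A washout of 12 hours and a second exposure at 100 ng/ml for 90 minutes followed. No untreated or single-exposure library was analysed here, so the levels below describe restimulated macrophages and say nothing of what lipid A changed. Replicate 1 was made from 1 µg and replicate 2 from 500 ng of ribosomal RNA-depleted total RNA. The labels name 1 donor entry for both, and nothing marks them as separate animals, so the spread between them may be technical.

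Cells hold free cholesterol within narrow limits through a pair of opposing programmes. When sterol in the endoplasmic reticulum is low, the escort protein SCAP carries the SREBP transcription factors to the Golgi, where they are cut and released to switch on synthesis and uptake; when sterol is ample, INSIG proteins hold them back. When cholesterol derivatives called oxysterols accumulate, the nuclear receptors LXRα and LXRβ switch on export through ABCA1 and ABCG1. Macrophages depend on the export side because they engulf cholesterol-rich particles and dying cells.

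The deposited gene counts summed to 29400104 in replicate 1 and 17789543 in replicate 2, so replicate 1 gives the tighter counting error. The 30 genes took 0.632% of these counts in replicate 1 and 0.588% in replicate 2. All 6 macrophage markers were present, among them Csf1r at 135 and 172 TPM (a level per transcript length), while the summed markers of each of 6 other cell types reached at most 0.52 and 1.55 TPM. The nuclear RNA Malat1 stood at 13291 and 24200 TPM and the lipid A-responsive cytokine gene Tnf at 610 and 507 TPM. In bulk RNA, fewer expressing cells and less RNA per cell cannot be told apart. Protein-coding and long non-coding genes took only 21.5% of TPM in each library, so a TPM printed here is low beside one from an mRNA library.

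The regions around 4 transcript starts are printed first, because the results on isoforms and start use refer to them. Each is the 300-base window from 250 bases before to 50 bases after a RefSeq transcript start, from build GRCm38.p6. Hmgcs1 (chr13:119690101-119690400, plus strand) is the synthesis enzyme of highest level among the members. Abca1 (chr4:53159846-53160145, minus strand) is the exporter with the most counts of any member. Srebf1 has an upstream start (chr11:60220578-60220877, minus strand) and a downstream start (chr11:60210422-60210721, minus strand). All are written 5′ to 3′. Capitals mark matches, on either strand, to TCACNCCAC (the sterol regulatory element that SREBPs bind), CCAAT (the box of NF-Y), GGGCGG (the box of Sp1) and GGTTACNNNNGGTCA (the letters shared by the LXR elements described in the mouse Abca1 and Srebf1 genes).
Hmgcs1: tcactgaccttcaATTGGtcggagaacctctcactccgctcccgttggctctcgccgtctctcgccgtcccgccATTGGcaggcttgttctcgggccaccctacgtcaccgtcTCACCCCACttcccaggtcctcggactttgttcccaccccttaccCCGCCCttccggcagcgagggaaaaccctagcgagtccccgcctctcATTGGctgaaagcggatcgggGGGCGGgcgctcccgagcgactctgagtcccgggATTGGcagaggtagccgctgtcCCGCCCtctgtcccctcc
Abca1: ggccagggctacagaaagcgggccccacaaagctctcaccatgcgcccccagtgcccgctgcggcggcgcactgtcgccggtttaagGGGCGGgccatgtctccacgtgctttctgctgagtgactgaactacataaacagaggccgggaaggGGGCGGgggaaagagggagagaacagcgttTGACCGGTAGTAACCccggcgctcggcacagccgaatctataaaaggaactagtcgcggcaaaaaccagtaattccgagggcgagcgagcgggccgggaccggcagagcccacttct
Srebf1 upstream start: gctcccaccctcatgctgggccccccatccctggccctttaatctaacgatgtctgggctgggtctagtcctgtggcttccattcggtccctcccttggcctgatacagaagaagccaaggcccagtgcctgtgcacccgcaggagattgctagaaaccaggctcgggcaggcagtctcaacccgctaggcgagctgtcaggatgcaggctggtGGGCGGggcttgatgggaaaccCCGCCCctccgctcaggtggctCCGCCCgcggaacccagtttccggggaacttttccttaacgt
Srebf1 downstream start: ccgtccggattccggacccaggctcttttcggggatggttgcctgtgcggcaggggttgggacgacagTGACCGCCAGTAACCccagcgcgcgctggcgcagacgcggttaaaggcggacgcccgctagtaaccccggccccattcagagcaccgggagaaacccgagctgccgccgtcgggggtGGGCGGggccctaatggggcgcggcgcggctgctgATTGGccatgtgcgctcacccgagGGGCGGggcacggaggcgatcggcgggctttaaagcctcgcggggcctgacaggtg
The Hmgcs1 window held the sterol regulatory element at 137 bases before the start, and it was the only one of 34 windows of 24 members to hold it. Across all 32851 windows of the table, 1.24% held these letters. The LXR letters stood at 67 bases before the start in Abca1 and at 182 bases before the downstream start of Srebf1, against 0.0365% of all windows. These LXR letters were chosen after the windows had been read. The motif set for the search, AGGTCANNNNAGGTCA, has other half-site letters, and it matched no member window and 0.0152% of all windows.

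The CCAAT box was present in all 8 synthesis enzymes that had a window, and in 17 of the 24 members with a window (70.8%). Of all 27025 genes in the table, 41.1% had one. In Dhcr7 the box was in the window of a start whose isoforms held 0% and 2.19% of the gene's TPM. The GGGCGG box was likewise in all 8 of these enzymes and in all 5 genes of the SREBP pathway, against 38.2% of all genes. It was not particular to these groups, since 20 of the 24 members had it (83.3%). They included all 3 lysosomal and uptake genes and 3 of 4 efflux genes that had a window. Neither receptor gene, Nr1h2 or Nr1h3, matched any of the motifs. Mvk, the mevalonate kinase, held 5 CCAAT boxes, the most of any member. A match describes the letters of a window and shows no binding; Abcg1, Npc1, Fdps, Fdft1, Sqle and Stard4 were not searched.

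Of the 30 genes, 29 were at 1 TPM or more in both libraries, against 38.6% of 22015 nuclear-encoded protein-coding genes. The median mean level of all 30 was 15.3 TPM. Over the 29 that passed it was 17.5 TPM, against 7.03 TPM for the 8499 protein-coding genes that passed 1 TPM in both. The members were not level with each other. Genes of lysosomal release and uptake had a median of 104 TPM, those of efflux 81.0 TPM, those of the SREBP pathway 13.0 TPM and the synthesis enzymes 4.79 TPM. In sums, the 5 efflux genes held 670 TPM in replicate 1 and 545 TPM in replicate 2, while the 11 synthesis enzymes held 55.3 and 60.1 TPM. This order of efflux over synthesis holds for the members only. Among the other pathway genes described below, 10 of efflux and apolipoproteins had a median of 0.285 TPM. Of these, 7 were below 1 TPM in both libraries. The 11 other synthesis genes had a median of 2.395 TPM.

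**Figure D1:**
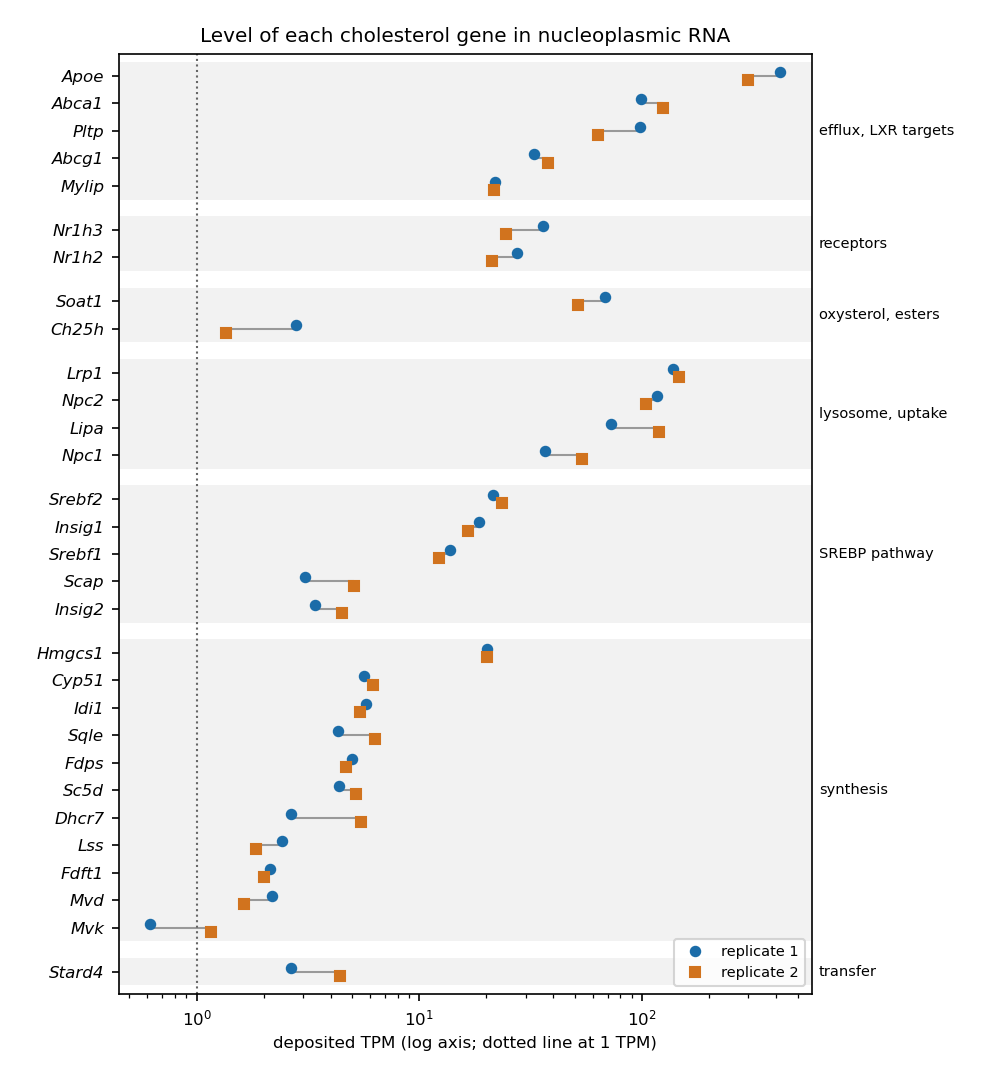
Deposited TPM of each of the 30 cholesterol genes on a log axis, grouped by role, with replicate 1 as circles above replicate 2 as squares and a line joining the 2 libraries. Apoe stands at 418 and 298 TPM at the right, Mvk at 0.62 and 1.16 TPM at the left, and 10 of the 11 synthesis enzymes lie below 7 TPM in both libraries.

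Among the efflux genes, Apoe (chr7:19696109-19699188, minus strand) encodes the apolipoprotein that macrophages secrete to carry cholesterol away. It had 418 TPM in replicate 1 and 298 TPM in replicate 2, a mean of 358 ± 84.6 TPM (SD, n = 2), which placed it above 99.8% of protein-coding genes. Abca1 (chr4:53030787-53159895, minus strand) moves cholesterol and phospholipid onto lipid-poor apolipoprotein. Replicate 1 had 99.1 TPM of it and replicate 2 had 124 TPM, from 48001 and 32165 counts, the most counts of any member. Pltp, which transfers phospholipids between lipoproteins, had 98.4 and 63.7 TPM. Abcg1, which loads cholesterol onto high-density lipoprotein, was lower at 32.8 and 38.0 TPM. Mylip encodes a ubiquitin ligase that LXR induces and that limits lipoprotein uptake. It had 21.9 and 21.7 TPM, the lowest level of the 5, and its TPM differed less between the libraries than that of any other efflux gene.

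The receptors that drive these targets lay close together. Nr1h3, which encodes LXRα, had 35.8 TPM in replicate 1 and 24.5 TPM in replicate 2. Nr1h2, which encodes LXRβ, had 27.3 TPM in replicate 1 and 21.3 TPM in replicate 2. Nr1h3 was above Nr1h2 in both libraries, although the ranges over the 2 libraries overlapped.

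At the point where sterol is stored or oxidised, the pair of genes stood far apart. Soat1 encodes the enzyme that esterifies cholesterol for storage in droplets, and it had 68.0 TPM in replicate 1 and 51.4 TPM in replicate 2. Ch25h encodes the hydroxylase that makes an oxysterol in activated macrophages, and it had 2.81 TPM in replicate 1 and 1.36 TPM in replicate 2, from 160 and 41 counts. Both libraries put Soat1 above Ch25h, without overlap.

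The uptake and lysosomal genes were all well represented. Lrp1 (chr10:127538161-127621148, minus strand), the endocytic receptor that takes up apolipoprotein E-bearing remnants, had 138 and 146 TPM. Its mean of 142 ± 5.80 TPM (SD, n = 2) was the second level of the list by deposited TPM. Npc2, the soluble carrier that binds cholesterol inside the lysosome, had 117 and 105 TPM. Npc1, the membrane protein to which NPC2 hands it, had 36.7 and 53.8 TPM. Npc2 was thus above its partner in both libraries. Lipa, the acid lipase that frees cholesterol from its esters, had 72.7 TPM in replicate 1 and 120 TPM in replicate 2, and this gap was wider than at the other 3 genes of its group.

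Within the SREBP pathway the transcription factors and Insig1 stood above the escort and the second INSIG. Srebf2 (chr15:82147181-82205379, plus strand), the factor best known for synthesis and uptake genes, had 21.5 and 23.6 TPM. Srebf1 (chr11:60199089-60222581, minus strand), whose products also drive fatty acid synthesis, had 13.7 and 12.3 TPM. The 2 factors did not overlap. Insig1, which retains SCAP and is itself an SREBP target, had 18.6 and 16.5 TPM. Insig2, which retains SCAP too, had 3.40 and 4.51 TPM, and Scap had 3.07 and 5.11 TPM. Counts behind these 5 genes ran from 205 for Insig2 in replicate 2 to 4102 for Srebf2 in replicate 1.

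Among the members, the synthesis enzymes were low apart from the first. Hmgcs1 (chr13:119690379-119708260, plus strand), which makes HMG-CoA and whose window is printed above, had 20.2 TPM in both libraries, from 2590 and 1310 counts. The next, the lanosterol demethylase Cyp51, had 5.66 and 6.18 TPM. In the mevalonate arm, the isomerase Idi1 had 5.78 and 5.42 TPM, the farnesyl diphosphate synthase Fdps 5.0 and 4.67 TPM and the decarboxylase Mvd 2.19 and 1.63 TPM. Mvk had 0.62 TPM in replicate 1 and 1.16 TPM in replicate 2, from 45 and 42 counts, and was the only member under 1 TPM in a library. Every member of this arm after Hmgcs1 was therefore below 6 TPM.

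Past squalene the levels were of the same order. The squalene synthase Fdft1 had 2.13 and 2.00 TPM and the squalene epoxidase Sqle, a rate-limiting enzyme of the later steps, had 4.31 and 6.30 TPM. The lanosterol synthase Lss had 2.42 and 1.84 TPM. The desaturase Sc5d had 4.36 and 5.21 TPM, and Dhcr7, the reductase of the last step, had 2.66 and 5.49 TPM. Dhcr7 had the widest relative spread of TPM among the enzymes. Stard4, which carries sterol between membranes, was close to them at 2.66 and 4.42 TPM.

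Ranked by mean TPM, the 30 genes form 29 neighbouring pairs, and in 21 of these the ranges over the 2 libraries overlapped. Within the libraries, 13 of the 29 pairs had the same order in both. The 8 steps without overlap were Apoe over Lrp1, Lrp1 over Abca1, Mylip over Hmgcs1, Hmgcs1 over Insig1, Insig1 over Srebf1, Srebf1 over Cyp51, Stard4 over Lss and Mvd over Mvk. The second quantification, described below, reversed Lrp1 over Abca1 (353 and 374, means of rescaled TPM). It also reversed Insig1 over Srebf1 (59.1 and 67.1). Srebf1 averaged 13.0 ± 1.02 TPM and Cyp51, next to it, 5.92 ± 0.368 TPM (SD, n = 2 each). The 14 genes from Cyp51 down included 10 of the 11 synthesis enzymes. With 2 libraries, ranges that do not overlap carry no test.

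Of the 61 other genes of cholesterol and related lipid handling listed beside the members, 42 were at 1 TPM or more in both libraries and 14 were below 1 TPM in both, 5 of them at 0. Msmo1, a sterol methyl oxidase of the later steps of synthesis, had 19.0 and 26.3 TPM. It stood above Cyp51, the second of the synthesis enzymes among the members, in both libraries.

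Uptake genes outside the list included the scavenger receptor Msr1 at 169 and 197 TPM. Lipoprotein lipase, Lpl, had 75.2 and 98.4 TPM, whereas the next gene of its list, the transporter Abca7, had 3.07 and 1.98 TPM. The canalicular sterol exporters Abcg5 and Abcg8 had 0 counts in both libraries, which allows up to 0.102 CPM, counts divided by library size, in replicate 1 and 0.169 CPM in replicate 2. The droplet protein Plin2 had 58.1 and 47.7 TPM and the ester hydrolase Nceh1 25.0 and 28.3 TPM. On the storage side, then, genes for making and for breaking esters were both present.

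Of the partners of LXR, the corepressor Ncor1 had 35.3 and 44.9 TPM and the coactivator Ncoa6 11.9 and 21.3 TPM. Among lipogenic targets the desaturase Scd2 had 25.6 and 43.9 TPM and Lpcat3, which remodels phospholipids, 8.05 and 9.88 TPM. The sterol carriers Gramd1a and Gramd1b, which draw cholesterol from the plasma membrane, had 77.2 and 98.8 TPM and 52.5 and 42.4 TPM. Both lay well above the member Stard4. Rnf139, a ubiquitin ligase of the endoplasmic reticulum, had 6.46 and 9.53 TPM.

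The libraries were then set against each other as the log2 ratio of replicate 1 over replicate 2, from counts scaled with trimmed-mean factors. All 30 members had the mean count of 10 required for a ratio. A single gene, Ch25h, was past 2-fold, that is 1 of 30 members, beside 8.69% of 11355 protein-coding genes and 13.4% of all 14831 genes. Its ratio was 1.40 (95% counting interval 0.90 to 1.94), higher in replicate 1. The lower bound is under 2-fold, and a ratio between 2 libraries of 1 group has no replicate check of its own.

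Below 2-fold, 3 members had the next ratios: Nr1h3 at 0.98 (2748 and 946 counts), Pltp at 0.96 (7431 and 2589 counts) and Apoe at 0.80 (16598 and 6484 counts). The receptors and efflux genes were all on the positive side, from Abca1 at 0.02 to Nr1h3. So were Soat1 at 0.21 and Ch25h, and 54% of protein-coding genes had a ratio above 0. From deposited TPM, Abca1 and Abcg1 were below 0. At the other end were Dhcr7 at −0.51, Mvk at −0.45, Sqle at −0.36 and Lipa at −0.35. The interval of the ratio kept off 0 in 23 of 30 members and in 59.4% of protein-coding genes, and spanned it in Abca1, Cyp51, Sc5d, Insig2, Stard4, Lss and Mvk. Without molecular identifiers, these intervals and the limits given for counts of 0 cover counting error alone.

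**Figure D2:**
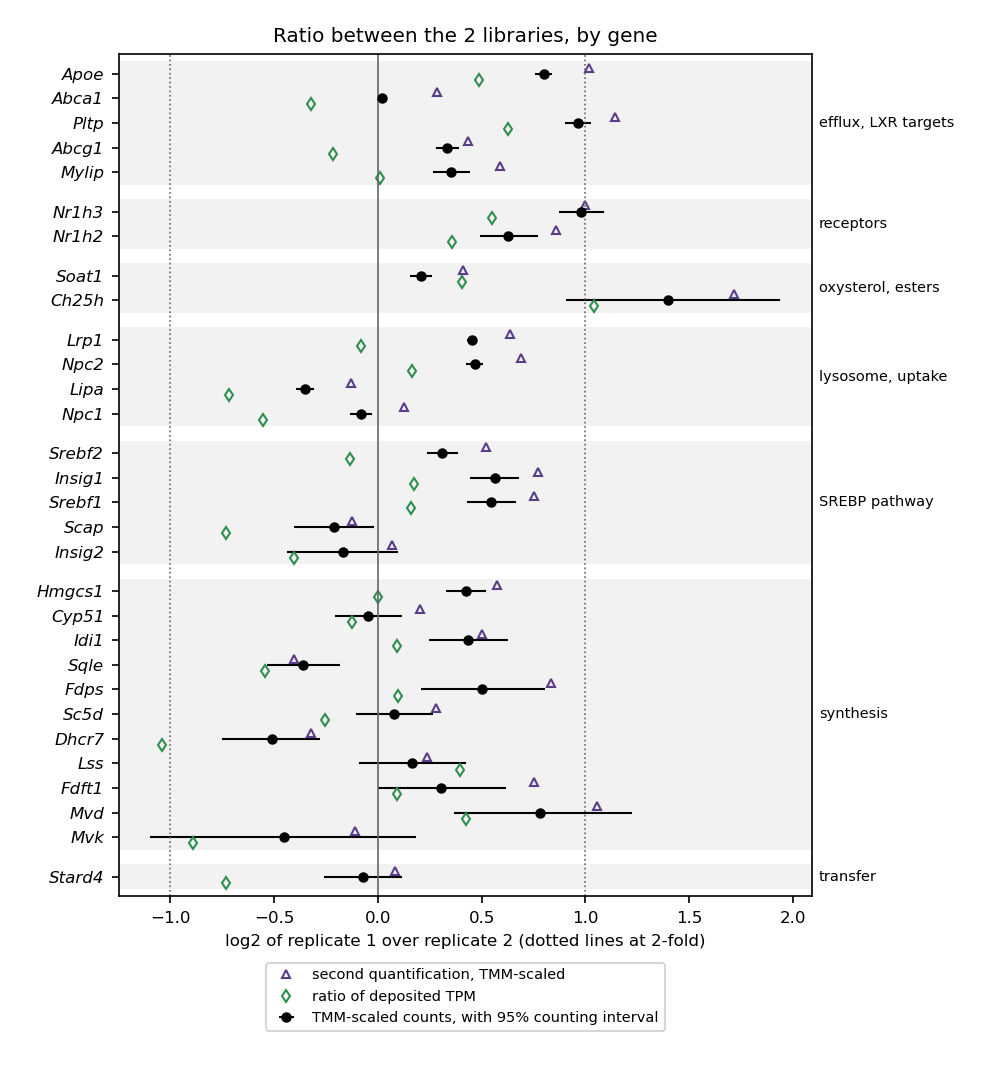
The log2 ratio of replicate 1 over replicate 2 for each member by role, as filled circles with 95% counting intervals from scaled counts, as triangles from the second quantification and as diamonds from deposited TPM. Dotted lines mark 2-fold; of the filled circles only Ch25h, at 1.40, lies outside them.

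Across the list, 21 of 30 ratios were above 0 and 9 below, beside 54% of protein-coding genes above 0. The median was 0.32, against −0.01 over all genes and 0.05 over protein-coding genes. The direction of a small ratio depended on the scale. From deposited TPM the split was 15 above and 15 below, beside 29.1% of protein-coding genes above 0. The member median was then 0.00, but the median of all genes was −0.36, so the members stood 0.36 above it, against 0.33 with scaled counts. Over protein-coding genes, the class of all 30 members, the median from TPM was −0.295, so the gap to that class was narrower. Lrp1, Abca1, Abcg1, Srebf2, Hmgcs1 and Sc5d changed sign between these 2 scales. Dhcr7 was past 2-fold by TPM at −1.04 and Ch25h remained so at 1.04.

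Among the 61 other genes, 53 had a ratio and 2 were past 2-fold. Soat2, which encodes the second cholesterol esterification enzyme, had 6.19 TPM in replicate 1 and 3.18 TPM in replicate 2 (600 and 164 counts), a ratio of 1.31. Star, which brings cholesterol into mitochondria, had 0.31 and 0.81 TPM (58 and 80 counts), a ratio of −1.01. Replicate 1 was thus the higher for Soat2 and the lower for Star. The starting amount of RNA, the sequencing depth and the share of phiX174 counts (0.766% and 0.272%) also differed between the libraries, and their part in these ratios was not tested.

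The deposited tables also split each gene among annotated isoforms. A retained-intron isoform keeps at least 1 intron of the coding transcript and is annotated as non-coding; in nuclear RNA its TPM can also take reads of unspliced precursor, and the 2 were not told apart. Of the 30 members 24 have such an isoform, and 23 of these had at least 1 TPM in both libraries. In them the median share of gene TPM on retained-intron isoforms was 20.6%, with 21.8% in replicate 1 and 22.5% in replicate 2. Over 5524 genes held to the same criteria it was 30.9%. Only Lss was above 50% in its mean, that is 1 of 23, against 20.4% of those 5524 genes. In the second quantification, described below, 4 of 23 were above 50%, and no share over all genes is given for it.

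**Figure D3:**
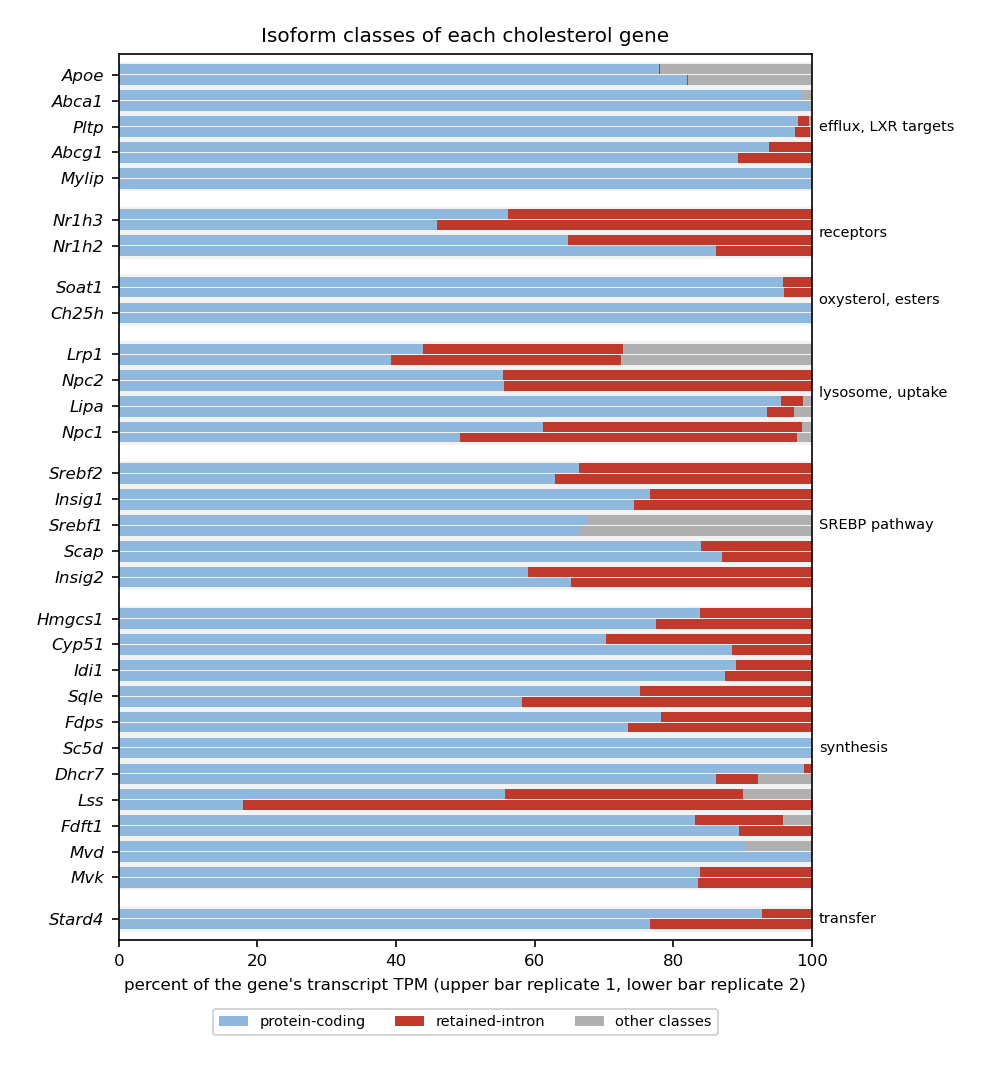
Percent of each gene's transcript TPM on protein-coding (blue), retained-intron (red) and other isoforms (grey), with replicate 1 as the upper and replicate 2 as the lower bar of each gene. Among the efflux genes, Apoe, Pltp and Abcg1 carry little red, at most 10.6% in Abcg1. Nr1h3 carries 43.8% and 54.1% and Lss 34.3% and 82.1%. Abca1, Mylip, Ch25h, Srebf1, Mvd and Sc5d have no annotated retained-intron isoform, so their bars cannot carry red.

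High shares were shared between libraries at several genes. Nr1h3 had 43.8% of its TPM on retained-intron isoforms in replicate 1 and 54.1% in replicate 2. Npc2 had 44.6% and 44.4%, and Npc1 37.4% and 48.6%. Insig2 had 40.9% and 34.8%, and Srebf2 33.5% and 37.0%. These 5 genes were picked for their high shares, so standing above the median of all eligible genes (30.9%) follows from the choice. Lss, with 34.3% and 82.1%, also stood above it in both libraries.

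Several abundant genes had low shares. Apoe had 0.103% and 0.164%, Pltp 1.64% and 2.23%, Lipa 3.12% and 3.91%, and Soat1 4.18% and 4.07%. Lrp1, the second gene of the list by deposited TPM, had 28.8% and 33.2%, but 4.78% and 13.6% in the second quantification described below. Its other non-coding share was on Lrp1-205, an isoform annotated for nonsense-mediated decay, at 37.5 and 40.2 TPM. The full-length coding Lrp1-201 thus held 43.0% and 37.4% of the gene's TPM. By counts it held nearly all of the gene, with 42431 of 44415 in replicate 1 and 20746 of 22064 in replicate 2. Lrp1-205 had 839 and 478 counts.

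In some genes the libraries disagreed. Lss had 34.3% of its TPM on retained-intron isoforms in replicate 1 and 82.1% in replicate 2, from 332 and 201 gene counts. Nr1h2 had 35.1% and 13.8%, Cyp51 29.7% and 11.5%, Sqle 24.8% and 41.8%, and Stard4 7.12% and 23.4%. For Stard4 the second quantification put 61.6% and 68.5% on such isoforms, so its share was not settled between the 2 tools. In the first, replicate 2 was the higher in Lss, Sqle and Stard4 and the lower in Nr1h2 and Cyp51. Apart from Nr1h2, each of these genes was below 7 TPM in both libraries.

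The leading isoform was the same in both libraries for 28 of 30 members, the exceptions being Sqle and Lss. In Sqle the coding Sqle-201 led in replicate 1, with 3.24 TPM against 2.03 TPM in replicate 2. The retained-intron Sqle-204 had 0.72 TPM in replicate 1 and led in replicate 2 with 2.28 TPM. Soat1 kept its leader, Soat1-201, at 36.4 and 40.8 TPM, while the short coding isoform Soat1-206, of 4 exons, had 21.7 TPM in replicate 1 and 1.00 TPM in replicate 2. That single isoform differed by more than the whole gene, whose levels were 68.0 and 51.4 TPM. By counts Soat1-206 was a small part of the gene, with 157 of 7648 in replicate 1 and 3.85 of 4497 in replicate 2. In the second quantification it had 12.4 and 4.90 TPM, a narrower relative gap.

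**Figure D4:**
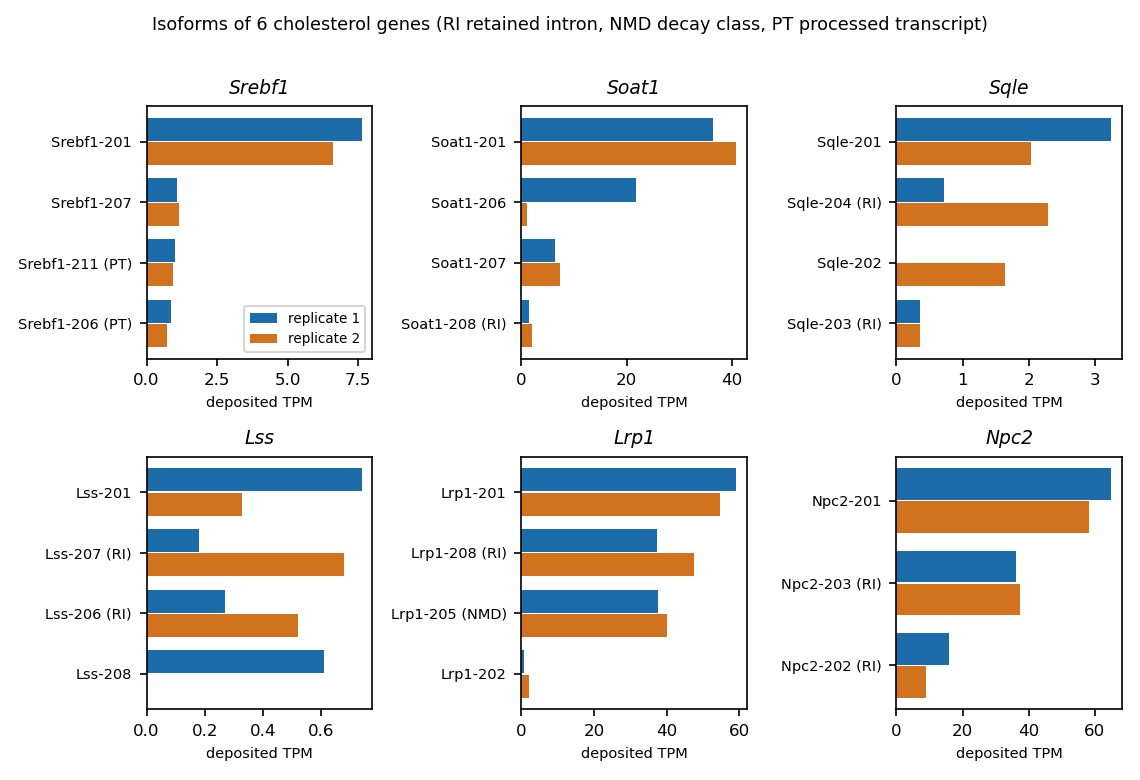
Deposited TPM of the isoforms with the highest summed TPM (at most 4) in Srebf1, Soat1, Sqle, Lss, Lrp1 and Npc2, with replicate 1 as the upper and replicate 2 as the lower bar. Srebf1-201 leads Srebf1 at 7.62 and 6.62 TPM in both libraries, whereas Soat1-206, Sqle-204 and Lss-207 differ widely between them.

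Start use could be read where an isoform began within 100 bases of a RefSeq start. For Srebf1, the upstream start printed above served Srebf1-201, which had 7.62 and 6.62 TPM, or 55.6% and 54.0% of the gene. The downstream start, which carries the LXR letters, served Srebf1-207 and Srebf1-208, with 1.07 and 1.16 TPM, or 7.81% and 9.45%. The start furthest upstream, that of Srebf1-204, had 0 and 0.21 TPM. In the second quantification the upstream start had 33.3% and 29.6%, the downstream start 13.3% and 7.06%, and Srebf1-204 13.5% and 36.4%, so the lead of the upstream start over the downstream one held while its lead over Srebf1-204 did not in replicate 2.

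Abca1, the other gene with the LXR letters, had nearly all its TPM on Abca1-201, which begins at the printed start. That isoform had 97.7 and 124 TPM, or 98.7% and 99.6% of the gene. The only other annotated isoform, Abca1-202, begins 118969 bases further on, so this share is set largely by the annotation and does not measure start use. The same letters thus stood at the start of the leading Abca1 isoform and at a start of Srebf1 with a small share of its TPM. At Hmgcs1, the isoforms of the printed start, Hmgcs1-201 and Hmgcs1-203, summed to 9.74 and 10.8 TPM, or 48.2% and 53.2% of the gene. The other 2 isoforms, Hmgcs1-202 and Hmgcs1-204, begin just past the 100-base limit and close to the start of Hmgcs1-201, so these shares do not divide separate start regions. Insig2 was served by the middle one of its 3 starts, at 2.01 and 2.94 TPM, with 0 TPM at the others in both libraries of the first quantification.

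Srebf2 holds a microRNA in its body. Mir33, on chr15:82198122-82198190 of the plus strand in GRCm38.p6, lies within Srebf2 and on its strand, and in mice its product lowers Abca1. Its mature arm is shown with the seed, bases 2 to 8, in capitals because that part pairs with targets.
mmu-miR-33-5p: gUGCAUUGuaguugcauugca
The Mir33 entry had 0 counts in both libraries, and in the second quantification 1 and 6 estimated counts. The libraries' size range of 250 to 400, per the labels, is not one for mature microRNAs, so these counts do not measure miR-33, while the host transcript stood at 21.5 and 23.6 TPM.

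Each library was quantified a second time by the submitters with a different tool, which permits a check of the levels themselves. After rescaling both to protein-coding and long non-coding genes, 25 of 30 members lay within 1.5-fold of each other and none was past 2-fold. The widest were Stard4, at 30.5 in the second quantification and 16.4 in the first, and Lrp1, at 353 in the second and 659 in the first (means of rescaled TPM). Stard4 moved by 8 places in the order, the most of any member, while Apoe stayed first and Mvk last. Lrp1 moved from place 2 to place 4, below Npc2 and Abca1. The same isoform led in both libraries and both quantifications for 21 of 30 members.

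**Figure D5:**
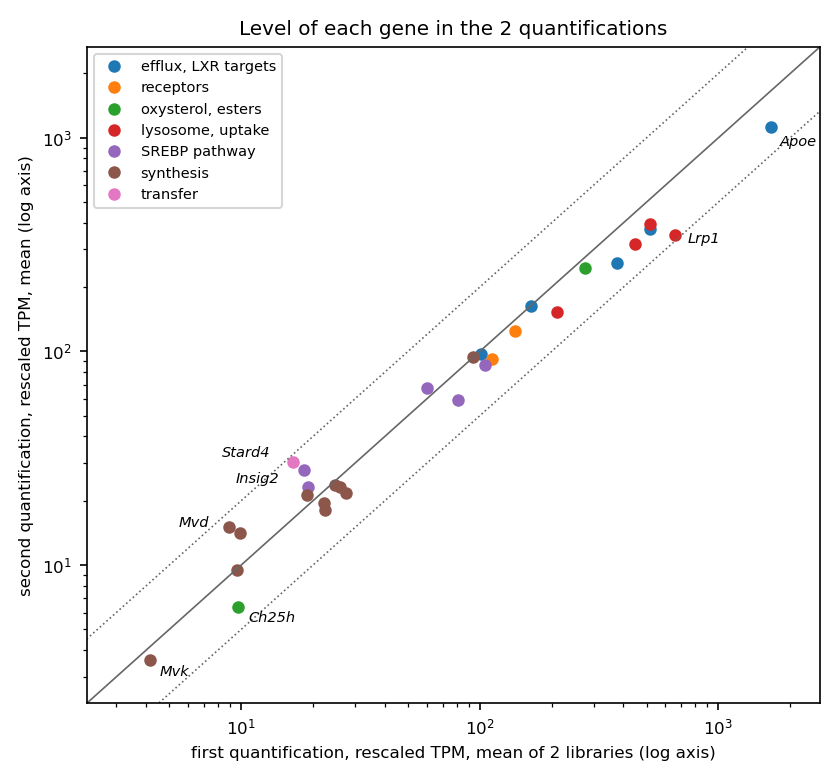
Mean level over the 2 libraries of each member in the first (horizontal) and second (vertical) quantification, in TPM rescaled over protein-coding and long non-coding genes, both on log axes, coloured by role. The solid line marks equality and the dotted lines 2-fold; all 30 genes lie between the dotted lines, with Stard4 and Lrp1 nearest to them.

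Neighbouring genes limit some values, since the sources used here do not say whether counting used strand. Of the members 18 overlap another gene and 15 have a partner on the opposite strand. Fdft1, at 251 and 138 counts, shares 774 bases with the protease gene Ctsb, which had 197267 and 130018 counts. Pltp shares 1515 bases with Ctsa, at 166 and 188 TPM, and Hmgcs1 lies over the antisense gene Gm48342, at 2.67 and 4.04 TPM. Mvd lies within Gm20388 on the other strand, at 5.10 and 7.69 TPM, above its own 2.19 and 1.63 TPM. The Fdft1 and Mvd values are for these reasons uncertain.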

How the data were processed

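Total RNA sequencing of 2 nucleoplasmic libraries was used, 1 group with 2 replicates. Per the labels and the list of files deposited with them, reads were placed on mm10 with the GENCODE M21 annotation. The first quantification, in the form RSEM writes, gives a deposited expected count and a deposited TPM per gene and transcript. It also gives the deposited percent of a gene's TPM on each transcript. The second, in the form kallisto writes, holds the authors' estimated count and TPM for every transcript, which were added up within genes. The sources used here name no software version and no strand setting.

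Expected counts were rounded. Rows that name no gene (0.766% of counts in replicate 1 and 0.272% in replicate 2, nearly all phiX174) were left out of library sizes. TMM factors (edgeR 4.0.16, R 4.3.3) came to 0.944 and 1.06 over the 14831 genes whose mean count reached 10. Ratios between libraries (log2, replicate 1 on top) used a prior count of 0.5, and a ratio past 1 in either direction counts as past 2-fold. Intervals are Clopper-Pearson at 95%. A count of 0 is taken as at most 3 counts. With 1 group there is no contrast, so no test was run and no p-value is given. Tables were computed with Python 3.11.15, pandas 2.3.3 and scipy 1.17.1, and DESeq2 1.42.0 size factors served as an alternative. The formula of the ratio was checked on simulated counts that held counting noise alone. That check does not cover the wider spread between these libraries. The libraries differed far beyond counting noise (chi-square per degree of freedom 150.1), so they are separate libraries.

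All 30 members are named. Of 61 other pathway genes, the 2 of highest mean TPM in each of 8 lists, and any past 2-fold, are named, with Abcg5 and Abcg8 as examples of genes below 1 TPM. Some genes that this rule takes in are not reported here. Members and lists were chosen with earlier results of these data known. Promoter and microRNA sequences are from RefSeq, GRCm38.p6, whose coordinates are those of mm10. The overlapping genes and isoforms named were chosen after their values were seen.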

Additional observations from a re-analysis of the deposited data

How the results depend on the processing

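With 2 libraries of 1 group, every ratio describes these libraries only, and the depth of replicate 2 limits the genes of few counts, such as Mvk and Ch25h. No paired analysis was possible because both libraries belong to 1 group and there is no contrast to block. At 5 TPM in place of 1 TPM, 18 members passed in both libraries. The median TPM of members was 9.37 in the second quantification, 70.9 after rescaling to protein-coding and long non-coding genes, and 17.5 over members at 1 TPM or more only. Members past 2-fold numbered 4 in the second quantification (Ch25h, Pltp, Mvd and Apoe), 2 from TPM (Ch25h and Dhcr7) and 2 with no filter on counts (Ch25h and Nr1h3). The share of all genes past 2-fold is not given for these settings. Whether members still fall below that share there is therefore not shown. The median ratio of members was 0.15 with library totals, 0.51 in the second quantification and 0.0049 from TPM, beside −0.18, −0.04 and −0.36 over all genes on the same scales. The median retained-intron share was 26.6% in the second quantification, and 19.4% to 21.8% when a replicate was left out. Members above 50% numbered 4 in the second quantification, 0 among genes of at least 5 TPM, and 0 to 2 when a replicate was left out. No share of all genes above 50% is given for these settings, and no median of all genes for the second quantification. The lower retained-intron share of members beside all genes therefore rests on the first quantification alone. Ch25h stayed past 2-fold and higher in replicate 1 under library totals, DESeq2 size factors, the second quantification, TPM and a prior count of 2. The sign of a member's ratio was kept for 27 of 30 under library totals, 30 with DESeq2 size factors, 26 in the second quantification, 24 from TPM and 30 with a prior count of 2. The cause of these changes was not tested.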
